A study of Mus musculus with 6 samples.

Results

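The 37 genes of the mouse mitochondrial genome were described in RNA-seq libraries of brain at postnatal day 15. The members were all rows of the deposited table whose Ensembl identifier lies on the mitochondrial chromosome in GENCODE M21 (build GRCm38), namely 13 protein-coding, 2 rRNA and 22 tRNA genes of 54532 identifiers in all. Angptl2-/- mice gave 3 libraries (replicates 1 to 3) and their Angptl2+/+ controls 3 libraries (replicates 1 to 3), all of the C57BL/6 background. The null allele came from male mice that carried floxed Angptl2 and Stra8-cre, a Cre active in the male germ line, so that the deletion of exon 2 was inherited by the whole body. Total RNA came from brain tissue that the labels give as a mixture of its cell types, and how the brains were dissected was not found in the labels or methods. The cerebellar genes Gabra6 and Cbln3 stood at 10.5 and 10.9 FPKM in Angptl2+/+ replicate 1 and at most at 0.276 FPKM in the other 5 libraries. The labels do not say that each library came from a separate mouse, so p-values measure the spread between these libraries only.

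The mitochondrial genome is a small circle present in many copies per cell. It encodes core subunits of 4 complexes of oxidative phosphorylation, both rRNAs of the mitochondrial ribosome and the tRNAs needed to translate them. Both strands are transcribed into long precursors, in which most mRNAs and rRNAs are flanked by tRNAs, and cleavage at the tRNA ends releases the mature RNAs. Neurons depend on this system for much of their ATP. Nuclear chromosomes also carry old insertions of mitochondrial DNA, and several of these are annotated as pseudogenes.

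Values are FPKM, fragments per kilobase of gene scaled by a size factor of each library that followed median ratios, not library totals. They are listed for replicates 1, 2 and 3 of a genotype in that order. By whole-fragment steps in the values, the libraries held 17127274 to 18928920 fragments assigned to genes. Library pairs correlated at 0.934 to 0.966 on log2(FPKM + 0.1) over the 14862 genes with a mean of at least 0.5 FPKM. Angptl2 itself, a secreted glycoprotein, had 20, 34 and 13 fragments in Angptl2-/- against 74, 107 and 31 in Angptl2+/+, with overlap of the genotypes (two-sided exact permutation test, p = 0.2, where 3 against 3 cannot go below 0.1). Xist without Y-linked transcripts was found in 1 Angptl2-/- library (replicate 2) and 2 Angptl2+/+ libraries (replicates 1 and 2), and Y-linked transcripts in the other 2 Angptl2-/- libraries and 1 Angptl2+/+ library.

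Pseudogene copies of mitochondrial genes matter for reading this table, since a 150-base read from a stretch that is identical in both places has no unique origin. To show how alike they are, the first 40 bases of mt-Nd3, a subunit of complex I (M:9459-9498, plus strand), are given with the start of its annotated copy Gm28438 (chr1:24613080-24613119, minus strand). Capitals mark the only difference, T3C, counted from the first base of the gene.
mt-Nd3: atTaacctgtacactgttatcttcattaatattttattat
Gm28438: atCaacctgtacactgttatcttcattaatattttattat
The copy of mt-Co1, the catalytic subunit of complex IV, holds only the last part of the gene. The stretch where Gm29216 begins is shown (M:6381-6420, plus strand, and chr1:24616158-24616197, minus strand), with the 6 differences in capitals and identical bases after them.
mt-Co1: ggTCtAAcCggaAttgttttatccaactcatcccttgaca
Gm29216: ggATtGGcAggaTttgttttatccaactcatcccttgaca
For mt-Co2, which encodes the subunit of complex IV that receives electrons from cytochrome c, the first 60 bases (M:7013-7072, plus strand) are given with an identical copy (Gm28661, chr1:24615506-24615565, minus strand) and a diverged one (Gm13341, chr2:22587903-22587962, minus strand). Capitals mark the 2 bases at which the chromosome 2 copy differs.
mt-Co2: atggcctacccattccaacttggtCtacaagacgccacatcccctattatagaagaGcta
Gm28661: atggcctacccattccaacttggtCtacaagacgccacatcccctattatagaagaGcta
Gm13341: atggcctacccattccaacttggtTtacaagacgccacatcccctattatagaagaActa

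The 4 tRNA genes with an unadjusted p under 0.05 are shown in the sense of the tRNA, with the anticodon in capitals. They carry tryptophan (mt-Tw, M:4950-5016, plus strand), proline (mt-Tp, M:15356-15422, minus strand), cysteine (mt-Tc, M:5192-5257, minus strand) and leucine (mt-Tl1, M:2676-2750, plus strand).
mt-Tw: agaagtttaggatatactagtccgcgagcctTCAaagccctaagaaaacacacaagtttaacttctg
mt-Tp: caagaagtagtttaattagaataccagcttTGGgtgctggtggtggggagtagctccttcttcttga
mt-Tc: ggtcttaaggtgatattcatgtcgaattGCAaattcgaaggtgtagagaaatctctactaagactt
mt-Tl1: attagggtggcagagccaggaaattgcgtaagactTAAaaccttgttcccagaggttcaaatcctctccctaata

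Mitochondrial genes took a large part of each library. They held 4.13, 4.93 and 5.75% of the fragments in Angptl2-/- and 4.04, 3.31 and 4.56% in Angptl2+/+ (4.93 ± 0.812% against 3.97 ± 0.627%, SD, n = 3 each), and 95% Wilson intervals reached at most 0.011 points to either side, for counting error only. The genotypes overlapped, since Angptl2-/- replicate 1 lay below Angptl2+/+ replicate 3. The difference of 0.967 points was 0.56 points without Angptl2-/- replicate 3 and 1.37 points without Angptl2-/- replicate 1. Among the libraries with Xist, the Angptl2-/- library had 4.93% and the Angptl2+/+ libraries 4.04 and 3.31%. Among those with Y-linked transcripts, the Angptl2-/- libraries had 4.13 and 5.75% and the Angptl2+/+ library 4.56%. In bulk tissue, fewer cells of a type and less RNA per cell cannot be told apart, and the same holds for more of either.

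By class, protein-coding genes made up 85.5 to 89.0% of the mitochondrial fragments in each of the 6 libraries, rRNAs 10.7 to 14.1% and tRNAs 0.319 to 0.454%. The tRNA share of all fragments was 0.0187, 0.0214 and 0.0195% in Angptl2-/- against 0.0139, 0.0118 and 0.0146% in Angptl2+/+, without overlap. The rRNA share was 0.573, 0.608 and 0.613% in Angptl2-/- against 0.57, 0.459 and 0.541% in Angptl2+/+, also without overlap but with Angptl2-/- replicate 1 close to Angptl2+/+ replicate 1. For protein-coding genes the genotypes overlapped.

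**Figure D1:**
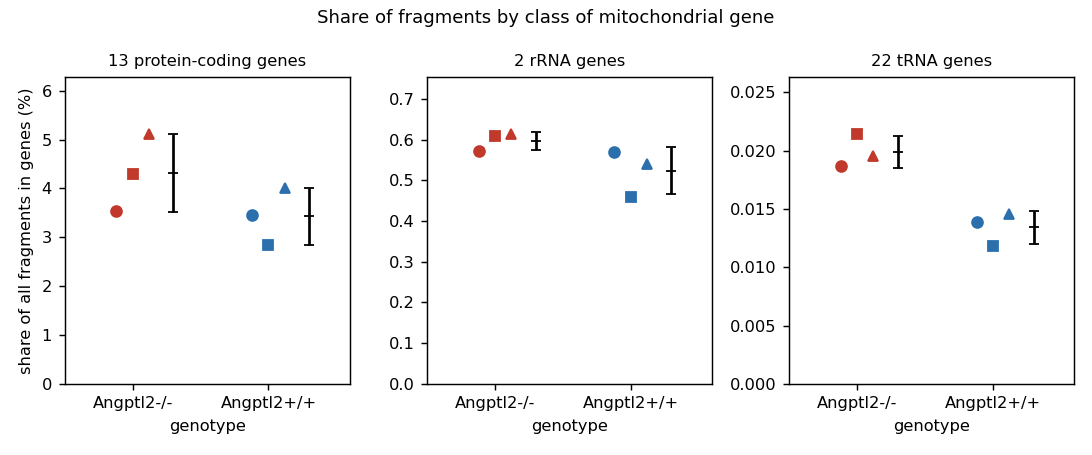
Share of all fragments assigned to genes (%, y axis) for each class of mitochondrial gene, with 3 libraries per genotype (circle, square and triangle for replicates 1, 2 and 3) and the mean ± SD as black bars. The tRNA shares of Angptl2-/- (0.0187 to 0.0214%) lay above those of Angptl2+/+ (0.0118 to 0.0146%), while the protein-coding shares overlapped. Without mt-Tp, the tRNA shares overlapped too.

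No mitochondrial gene passed an adjusted p under 0.05 between the genotypes. Of the 37 genes, 32 reached a mean of 0.5 FPKM and were tested with limma on log2(FPKM + 0.1), and 0 were called, as for 0.0% of all 14862 genes tested. Their smallest adjusted p, 0.273, belonged to mt-Tw. An unadjusted p under 0.05 was found for 4 of the 32 that were higher in Angptl2-/- against a background of 7.09% of all genes, and for 0 that were lower against 9.12%. All Angptl2-/- libraries lay above all Angptl2+/+ libraries in 3 of the 32 (mt-Rnr2, mt-Co2 and mt-Tw), where 10.7% of all genes did, and below in 0, where 11.8% did. Log2 fold changes (Angptl2-/- minus Angptl2+/+) were positive in 27 and negative in 5, with a median of 0.29 beside −0.0043 over all genes tested, and 11 of the 21 members named here with a fold change turned negative after a correction for GC content. A filter on the mean of both genotypes selected these 32, and the other 5 were all tRNAs.

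The 7 protein-coding genes with high values belong to complexes I, III and IV. mt-Co1 was the most abundant transcript of the whole table, at 9533, 11495 and 12879 FPKM in Angptl2-/- against 8567, 7382 and 12011 FPKM in Angptl2+/+. mt-Cytb, the cytochrome b subunit of complex III, followed with 5197, 6668 and 7169 FPKM in Angptl2-/- against 5213, 4158 and 6334 FPKM in Angptl2+/+. In both genes Angptl2+/+ replicate 3 reached into the range of Angptl2-/-, and in mt-Cytb replicate 1 did too. The log2 fold change was 0.30 for mt-Co1 (standard error 0.22, adjusted p = 0.507 from limma) and 0.29 for mt-Cytb (standard error 0.21, adjusted p = 0.494 from limma).

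The other 5 of these genes encode subunits of complex I, the NADH dehydrogenase. mt-Nd1 had 4613, 5675 and 7107 FPKM in Angptl2-/- against 4769.8, 3582 and 5273 FPKM in Angptl2+/+. mt-Nd2 had 2295, 3215 and 4514 FPKM in Angptl2-/- against 2495, 1917 and 2799 FPKM in Angptl2+/+. Replicate 1 of Angptl2-/- fell inside the control range in both. For mt-Nd4 the values were 1896, 2571 and 3433 FPKM in Angptl2-/- against 2088, 1660.0 and 2337 FPKM in Angptl2+/+. For mt-Nd5 they were 1987, 2729 and 3709.8 FPKM in Angptl2-/- against 1814, 1663 and 2446 FPKM in Angptl2+/+. mt-Nd6, the only protein-coding gene of the light strand, had 1763, 2421 and 3825 FPKM in Angptl2-/- against 1716, 1516 and 2103 FPKM in Angptl2+/+, the widest relative spread among these genes. Its log2 fold change was 0.53 (95% interval −0.14 to 1.19, adjusted p = 0.384 from limma), or 0.23 with Angptl2-/- replicate 3 left out, when mt-Nd5 stood at 0.26. mt-Nd5, which shares 14 bases with mt-Nd6 on the opposite strand, had a log2 fold change of 0.48 (95% interval −0.11 to 1.08, adjusted p = 0.377 from limma). Whether the counting used strand is not given in the sources used here, so sense and antisense fragments of these neighbours cannot be told apart.

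The 7 high genes varied together from library to library. Relative to its mean over the 6 libraries on the log2 scale, the median of the 7 genes stood at −0.21, 0.20 and 0.60 in Angptl2-/- replicates 1, 2 and 3, and at −0.15, −0.47 and 0.060 in Angptl2+/+ replicates 1, 2 and 3. Angptl2-/- replicate 3 was the highest library in 7 of 7 genes and Angptl2+/+ replicate 2 the lowest in 7 of 7. Angptl2-/- replicate 2 exceeded all Angptl2+/+ libraries in 6 of 7 genes and Angptl2-/- replicate 1 in 0 of 7. The order mt-Co1, mt-Cytb, mt-Nd1 and mt-Nd2, from high to low, held in all 6 libraries. The order of mt-Nd4, mt-Nd5 and mt-Nd6 after them changed between libraries.

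**Figure D2:**
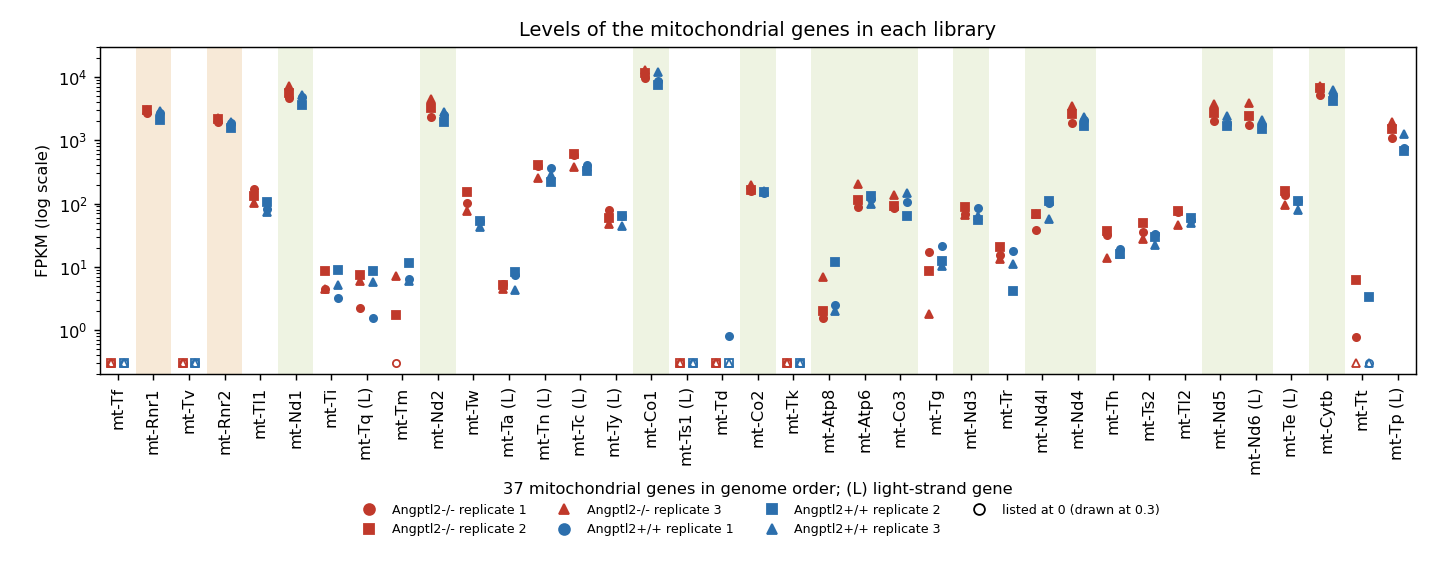
FPKM on a log scale (y axis) of the 37 mitochondrial genes in genome order (x axis), with 3 libraries per genotype drawn as points, protein-coding genes on green and rRNA genes on orange ground. The 6 protein-coding genes between mt-Co1 and mt-Nd4 averaged 4.47 to 161.5 FPKM over the libraries, and the other 7 averaged 2224 to 10311 FPKM.

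Low values were found in 6 protein-coding genes that are neighbours in the genome. mt-Co2, mt-Atp8, mt-Atp6, mt-Co3, mt-Nd3 and mt-Nd4l follow each other between mt-Co1 and mt-Nd4, and averaged at most 161.5 FPKM over the 6 libraries. They held 0.617 to 0.913% of the mitochondrial fragments of a library. mt-Co2 had 158, 164 and 194 FPKM in Angptl2-/- against 147, 150.5 and 156 FPKM in Angptl2+/+. These libraries did not overlap, yet the difference was small (log2 fold change 0.18, standard error 0.11, adjusted p = 0.431 from limma). mt-Co3, the remaining mitochondrial subunit of complex IV, had 85.9, 90.8 and 139 FPKM in Angptl2-/- against 107, 64.2 and 145 FPKM in Angptl2+/+. Its genotype means of 105 ± 29.4 and 106 ± 40.5 FPKM (SD, n = 3 each) were apart by less than the spread between libraries.

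Both mitochondrial subunits of the ATP synthase were in this low group. mt-Atp6, part of its proton channel, had 87.6, 114 and 204 FPKM in Angptl2-/- against 119.6, 132 and 98.3 FPKM in Angptl2+/+, so that Angptl2-/- held both the lowest and the highest library. mt-Atp8 was the lowest protein-coding gene by far, at 1.53, 2.03 and 6.88 FPKM in Angptl2-/- against 2.47, 11.9 and 2.02 FPKM in Angptl2+/+. These values rested on 6, 7 and 23 fragments in Angptl2-/- and 9, 43 and 7 in Angptl2+/+. Its log2 fold change was −0.47 (95% interval −2.27 to 1.32, adjusted p = 0.771 from limma), and 0.31 without Angptl2+/+ replicate 2. The gene is 204 bases long and shares 43 of them with mt-Atp6, and how fragments in an overlap were assigned is not given in the sources used here.

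A pair of complex I subunits completed the group, mt-Nd3 and mt-Nd4l. mt-Nd3 had 68.0, 89.2 and 66.1 FPKM in Angptl2-/- against 86.1, 55.1 and 63.0 FPKM in Angptl2+/+. mt-Nd4l had 37.8, 67.8 and 69.1 FPKM in Angptl2-/- against 101, 111 and 56.5 FPKM in Angptl2+/+, and the genotypes overlapped through Angptl2+/+ replicate 3. The log2 fold change of mt-Nd4l was −0.61 (standard error 0.32, adjusted p = 0.374 from limma), the lowest of the 13 protein-coding genes. It was −0.26 (adjusted p = 0.541 from limma) when its fragments were summed with those of its copy on chromosome 1, a calculation chosen after seeing the data.

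The same stretch of the mitochondrial genome has a copy on chromosome 1. Segments of at least 250 bases and 95% identity to mitochondrial genes were annotated in 11 nuclear pseudogenes, 7 of them on chromosome 1, 3 on chromosome 2 and 1 on chromosome 13. The 7 on chromosome 1 run from Gm29216 to Gm28439 (chr1:24611535-24616197, minus strand) and match, in mirrored order, the end of mt-Co1, mt-Co2, mt-Atp6, mt-Co3, mt-Nd3, mt-Nd4l and the first 876 bases of mt-Nd4. The bases between neighbouring segments were the same number on both chromosomes for 5 of 6 pairs. These include 233 bases between mt-Co2 and mt-Atp6, where mt-Tk and the part of mt-Atp8 outside its overlap with mt-Atp6 lie. At the remaining pair, mt-Nd3 and mt-Nd4l, they numbered 73 on the mitochondrial genome and 74 on chromosome 1. No pseudogene is annotated in the 233 bases, and the genome sequence there was not analysed here.

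Exact copies were counted as the share of a gene's 150-base windows that occur without a mismatch in a transcript of a nuclear gene. The share was 99.4% for mt-Co2, 99.4% for mt-Atp6, 99.8% for mt-Co3, 97.0% for mt-Nd3 and 98.0% for mt-Nd4l. It was 59.2% for mt-Nd4 and 23.6% for mt-Co1, which had high values. For the other 6 protein-coding genes and both rRNAs it was 0.0%, and among these genes only mt-Atp8 had low values. Its 0.0% covers annotated transcripts only. The 43 bases that mt-Atp8 shares with mt-Atp6 lie in Gm10925, but are fewer than any window used. For the rest of mt-Atp8, no transcript is annotated at the matching place on chromosome 1. With windows of 50 bases the share of mt-Co1 was 51.1%. How reads that fit several places were treated is not given in the sources used here, and its part in the low values was not tested.

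**Figure D3:**
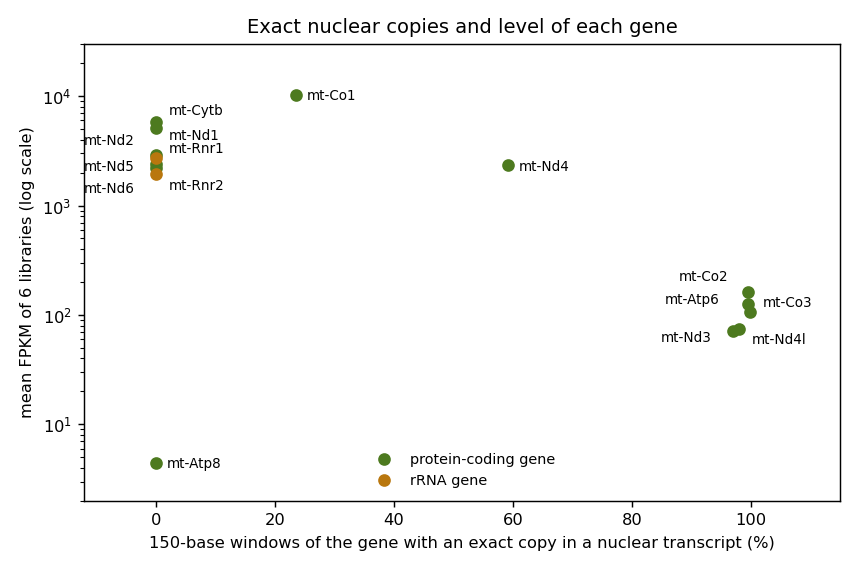
Share of 150-base windows of a gene that occur exactly in a nuclear transcript (%, x axis) against the mean FPKM of 6 libraries on a log scale (y axis), for the 13 protein-coding and 2 rRNA genes. The 5 genes at 97.0 to 99.8% had low values, and of the genes at 0.0% only mt-Atp8 did. Nuclear sequence outside annotated transcripts was not searched. This includes the place on chromosome 1 that matches mt-Atp8 outside its overlap with mt-Atp6.

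The copies on chromosome 1 had values of their own. Gm28661, the copy of mt-Co2, had 138, 161 and 204 FPKM in Angptl2-/- against 169.7, 124 and 146 FPKM in Angptl2+/+, or 0.825 to 1.15 times the value of mt-Co2 in the same library. Gm10925, the copy of mt-Atp6, had 119, 149.9 and 267 FPKM in Angptl2-/- against 163, 92.7 and 129 FPKM in Angptl2+/+, or 0.702 to 1.36 times the value of mt-Atp6. Gm28437, the copy of mt-Co3, had 63.8, 72.0 and 90.5 FPKM in Angptl2-/- against 69.3, 44.5 and 73.1 FPKM in Angptl2+/+, or 0.504 to 0.792 times mt-Co3. For these 3 genes, gene and copy had values of a like size. Gm10222, the copy of mt-Nd4l, had 39.7, 43.7 and 57.3 FPKM in Angptl2-/- against 33.7, 27.4 and 43.3 FPKM in Angptl2+/+, and its ratio to mt-Nd4l ran from 0.246 to 1.05. Gm28438, which differs from mt-Nd3 at 1 base, had 9.07, 10.3 and 14.2 FPKM in Angptl2-/- against 15.3, 8.16 and 7 FPKM in Angptl2+/+, at 0.111 to 0.214 times mt-Nd3.

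The copies of the partly covered genes were far below them. Gm29216 had 56.2, 62.6 and 103 FPKM in Angptl2-/- against 58.0, 45.8 and 72.8 FPKM in Angptl2+/+, at most 0.00802 times mt-Co1. Gm28439 had 29.8, 50.3 and 69.0 FPKM in Angptl2-/- against 35.6, 31.9 and 42.4 FPKM in Angptl2+/+, at most 0.0201 times mt-Nd4. In 6 of these 7 copies Angptl2-/- replicate 3 was the highest library, as in the 7 high mitochondrial genes, and in Gm28438 it was Angptl2+/+ replicate 1. None of the 7 was called (log2 fold changes 0.19 to 0.44, adjusted p = 0.329 to 0.757 from limma).

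The 4 diverged copies had low values. Gm13340, at 97.6% identity to mt-Co1 over its whole length, had 5.87, 6.56 and 9.80 FPKM in Angptl2-/- against 8.78, 7.69 and 10.6 FPKM in Angptl2+/+. Gm13341, at 95.9% identity to mt-Co2, had 0.931, 0.882 and 0.545 FPKM in Angptl2-/- against 1.75, 1.09 and 1.75 FPKM in Angptl2+/+, with no overlap (log2 fold change −0.88, adjusted p = 0.274 from limma). It rested on 6 to 21 fragments a library. Gm13339, at 96.7% identity to part of mt-Nd2, had 1.39 to 2.75 FPKM in Angptl2-/- against 1.10 to 1.54 FPKM in Angptl2+/+. Gm4076, at 95.2% identity to part of mt-Nd5, stayed under the filter with 1 to 4 fragments a library.

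**Figure D4:**
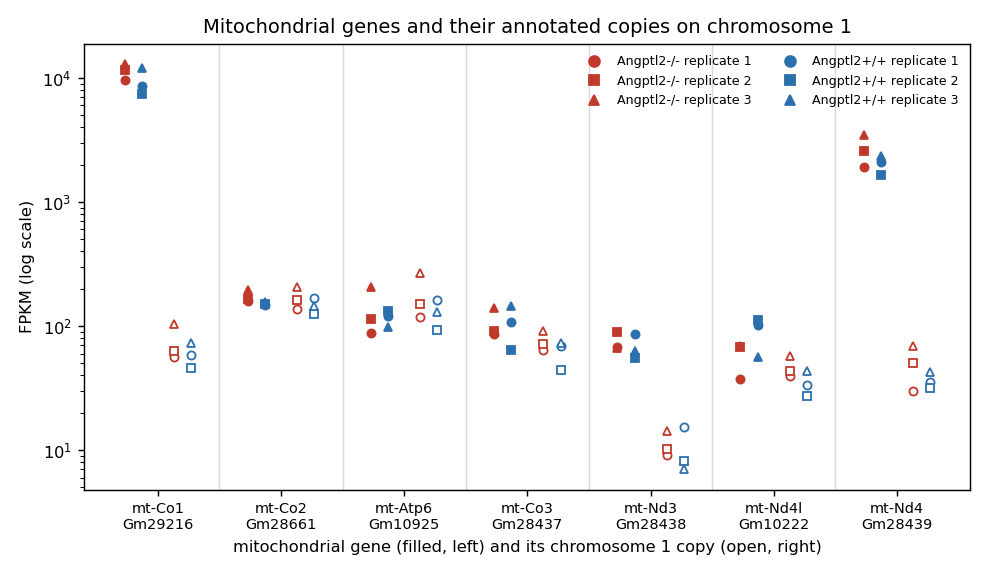
FPKM on a log scale (y axis) of 7 mitochondrial genes (filled) and their annotated copies on chromosome 1 (open) in 3 libraries of each genotype. Gene and copy lay close for mt-Co2, mt-Atp6 and mt-Co3, while the copies of mt-Co1 and mt-Nd4 were at most 0.00802 and 0.0201 times the gene.

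The rRNAs form the core of the small (mt-Rnr1) and large (mt-Rnr2) subunit of the mitochondrial ribosome. mt-Rnr1 had 2668, 2969 and 2971 FPKM in Angptl2-/- against 2719.5, 2121 and 2872 FPKM in Angptl2+/+. mt-Rnr2 had 1962, 2162 and 2259 FPKM in Angptl2-/- against 1884, 1582 and 1924 FPKM in Angptl2+/+. The genotypes overlapped for mt-Rnr1 but not for mt-Rnr2, by a margin that is small beside the spread in either. The log2 fold change was 0.17 for mt-Rnr1 (standard error 0.15, adjusted p = 0.587 from limma) and 0.25 for mt-Rnr2 (standard error 0.13, adjusted p = 0.385 from limma). With Angptl2+/+ replicate 2 left out they stood at 0.036 and 0.16.

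Ratios between genes of 1 library do not depend on its scaling. mt-Rnr2 to mt-Rnr1, which leave the same precursor, stood at 0.735, 0.728 and 0.76 in Angptl2-/- against 0.693, 0.746 and 0.67 in Angptl2+/+. mt-Nd6 to mt-Nd5, on opposite strands, stood at 0.887, 0.887 and 1.03 in Angptl2-/- against 0.946, 0.912 and 0.86 in Angptl2+/+. Both pairs overlapped between genotypes. The ratio of mt-Nd4l to mt-Nd4 was 0.0199, 0.0264 and 0.0201 in Angptl2-/- against 0.0485, 0.0669 and 0.0242 in Angptl2+/+, with Angptl2+/+ replicate 3 inside the range of Angptl2-/- (two-sided exact permutation test on log2 ratios, p = 0.2, adjusted p = 0.6 over 6 ratios). In the bicistronic pair mt-Atp8 and mt-Atp6 the ratio was 0.0175 to 0.0337 in Angptl2-/- and 0.0206 to 0.0898 in Angptl2+/+. None of the 6 ratios tested, with mt-Co2 and mt-Co3 to mt-Co1 the others, passed (exact permutation p = 0.2 to 0.7, where 0.1 is the smallest possible).

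The tRNA genes spanned the widest range of values. Each is 59 to 75 bases long, so that a full 150-base read assigned to one also covers bases outside it. Their means over the 6 libraries ran up to 1207 FPKM in mt-Tp, which alone held 47.2% of the 17758 tRNA fragments. mt-Tf, mt-Tv, mt-Ts1 and mt-Tk had 0 fragments in all 6 libraries, which allows up to 3 in a library, and mt-Td had 1 fragment in all. The 8 tRNA genes of the light strand had a median of 87.2 FPKM and the 14 of the heavy strand a median of 8.88 FPKM, as a description over the means of the 6 libraries. Of the 5 tRNA genes that lie within the stretch spanned by the copies on chromosome 1, 3 had at most 1 fragment and all 5 together had 187. Copies of these 5 were not themselves found in a nuclear transcript, but the search could hardly find them. They are shorter than the 250-base minimum for segments, and sequence between the annotated copies on chromosome 1 was not searched. Among the 17 outside the stretch 2 had at most 1 fragment and all had 17571 together, with 8390 in mt-Tp, 3107 in mt-Tc and 2391 in mt-Tn. Outside it, mt-Ti, mt-Tq, mt-Tm, mt-Ta and mt-Tt had 12 to 42 fragments, fewer than mt-Tg (87) and mt-Tr (99) within.

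The tRNA for tryptophan, mt-Tw, had the smallest p-value of the 32 members tested. It had 100.4, 151 and 76.5 FPKM in Angptl2-/- against 52.7, 52.9 and 43.1 FPKM in Angptl2+/+, with no overlap. This corresponds to 129, 171 and 84 fragments in Angptl2-/- against 63, 63 and 49 in Angptl2+/+. The log2 fold change was 1.09 (95% interval 0.53 to 1.65, unadjusted p = 0.00235, adjusted p = 0.273 from limma), higher in 3 of 3 Angptl2-/- libraries, and it did not pass. mt-Tw shares its first 2 bases with the end of mt-Nd2, whose log2 fold change was 0.44.

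The other 3 tRNAs under an unadjusted p of 0.05 overlapped between genotypes. mt-Tp, the last gene before the control region, had 1075, 1508 and 1939.6 FPKM in Angptl2-/- against 769, 676 and 1276 FPKM in Angptl2+/+ (log2 fold change 0.75, unadjusted p = 0.0373 and adjusted p = 0.29 from limma). mt-Tc had 582, 616 and 383 FPKM in Angptl2-/- against 399.9, 325 and 373 FPKM in Angptl2+/+ (log2 fold change 0.50, unadjusted p = 0.0367 and adjusted p = 0.289 from limma). mt-Tl1, between mt-Rnr2 and mt-Nd1, had 169, 133 and 101 FPKM in Angptl2-/- against 82.2, 105 and 74.6 FPKM in Angptl2+/+ (log2 fold change 0.60, unadjusted p = 0.0231 and adjusted p = 0.277 from limma). Angptl2-/- replicate 3 was the highest library for mt-Tp, like the 7 high protein-coding genes, but the lowest of its genotype for mt-Tc, mt-Tl1 and mt-Tw.

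Neighbours in the cluster of 5 tRNA genes between mt-Nd2 and mt-Co1 had unlike levels. mt-Tn, for asparagine, had 390.0, 414 and 251 FPKM in Angptl2-/- against 359.9, 219.6 and 281 FPKM in Angptl2+/+ (log2 fold change 0.29, adjusted p = 0.557 from limma). mt-Ty, for tyrosine, stood at 47.4 to 79.4 FPKM in Angptl2-/- against 44.8 to 64.7 FPKM in Angptl2+/+, and mt-Ta, for alanine, at 4.42 to 5.29 FPKM in Angptl2-/- against 4.27 to 8.16 FPKM in Angptl2+/+. Between mt-Nd6 and mt-Cytb, mt-Te, for glutamate, had 138, 159 and 96.4 FPKM in Angptl2-/- against 108, 109 and 78.5 FPKM in Angptl2+/+ (log2 fold change 0.39, adjusted p = 0.387 from limma). The 3 neighbours mt-Th, mt-Ts2 and mt-Tl2 between mt-Nd4 and mt-Nd5 lay at 13.7 to 75.1 FPKM in Angptl2-/- and 15.8 to 60.2 FPKM in Angptl2+/+. The remaining 6 tested tRNAs (mt-Ti, mt-Tq, mt-Tm, mt-Tg, mt-Tr and mt-Tt) had 12 to 99 fragments over all 6 libraries. The lowest and highest log2 fold changes of the class came from these, −2.82 in mt-Tm and 1.33 in mt-Tt, where libraries at 0 make the value depend on the pseudocount.

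**Figure D5:**
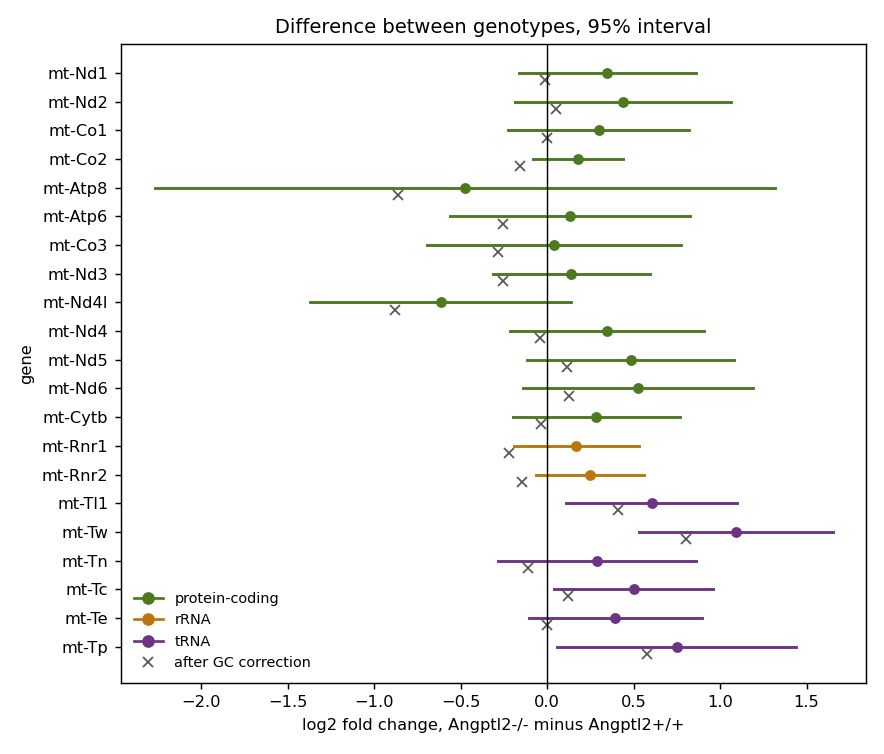
Log2 fold change, Angptl2-/- minus Angptl2+/+ (x axis), with 95% intervals from limma for the 13 protein-coding genes, the 2 rRNAs and the 6 tRNAs with most fragments (y axis), and the value after a correction for GC content as crosses. Among these genes, intervals excluded 0 only in mt-Tl1, mt-Tw, mt-Tc and mt-Tp, before adjustment over all genes, and the median of the 13 protein-coding genes was 0.29 before and −0.041 after the GC correction.

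As a class, 11 of 13 protein-coding genes had a positive log2 fold change (median 0.29), but 9 of 13 a negative one after each library was corrected for the GC content of genes (median −0.041). The 13 genes have a GC content of 31.9 to 41.1%, against a median of 49.7% over the genes tested. Quantile normalization gave a median of 0.10, but it ties each value to the rank of a gene in its library. Mitochondrial genes held 9 of the 10 highest mean FPKM, so their differences are limited by construction in that setting. Without these corrections, the median was 0.35 in the 7 high and 0.086 in the 6 low genes. Marker levels of other cells also differed between the same libraries. The sum of 6 choroid plexus markers was 104.1 to 934.4 FPKM in Angptl2-/- against 1.67 to 7.72 FPKM in Angptl2+/+. Ttr made up most of it in Angptl2-/-, at 99.6 to 915.8 FPKM against 0.58 to 4.29 FPKM in Angptl2+/+. Of these markers, Otx2 and Kl overlapped between genotypes. For 5 red blood cell markers the sum was 124.8 to 274.1 FPKM in Angptl2-/- against 301.6 to 497.6 FPKM in Angptl2+/+, while Hbb-bs and Hba-a2 overlapped singly. Of 3 endothelial markers, Cldn5 stood at 30.4 FPKM or less in Angptl2-/- against 33.7 FPKM or more in Angptl2+/+, while Flt1 and Pecam1 overlapped. The sum of 5 striatal markers was 50.7, 85.1 and 108.4 FPKM in Angptl2-/- against 19.7, 64.3 and 36.9 FPKM in Angptl2+/+, with Angptl2-/- replicate 3 the highest library, as for the 7 high mitochondrial genes. For 5 cerebellar markers the sum was 32.5, 13.3 and 16.6 FPKM in Angptl2-/- against 85.3, 34.2 and 11.2 FPKM in Angptl2+/+. For 4 oligodendrocyte markers it was 316, 486 and 700.4 FPKM in Angptl2-/- against 1000.8, 464 and 545 FPKM in Angptl2+/+, and both of these lists were highest in Angptl2+/+ replicate 1. Neuronal markers overlapped, with all 5 present at a sum of 748 to 922 FPKM in Angptl2-/- against 722 to 1054 FPKM in Angptl2+/+, and fit the labelled tissue. The part of these differences in the mitochondrial values was not tested.

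Nuclear genes for transcription, processing and modification of mitochondrial RNA are the upstream machinery of these transcripts. Of 42 such genes 40 were tested and 0 were called. At an unadjusted p under 0.05, 0 were higher against 7.09% of all genes, and 4 lower against 9.12%, with a median log2 fold change of 0.048. Polrmt, the mitochondrial RNA polymerase, had 4.92, 4.57 and 4.6 FPKM in Angptl2-/- against 5.31, 5.47 and 6.08 FPKM in Angptl2+/+, with no overlap (adjusted p = 0.313 from limma). Tfam, which packages the mitochondrial genome and starts its transcription, had 6.79, 6.79 and 7.89 FPKM in Angptl2-/- against 7.53, 6.30 and 7.57 FPKM in Angptl2+/+. Lrpprc, which stabilises mitochondrial mRNAs, had 11.5, 11.8 and 13.1 FPKM in Angptl2-/- against 10.6, 9.88 and 10.4 FPKM in Angptl2+/+ (adjusted p = 0.317 from limma). The log2 fold changes of Polrmt and Lrpprc had opposite signs, but both 95% intervals included 0 (−0.51 to 0.0032 and −0.0052 to 0.47), and neither passed. Of the 40, 6 were higher and 7 lower without overlap, beside 10.7% and 11.8% of all genes.

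The most abundant of the list was Grsf1, an RNA-binding protein of mitochondrial RNA granules, at 31.9 to 40.1 FPKM in Angptl2-/- against 28.6 to 37.1 FPKM in Angptl2+/+. The smallest p-values belonged to Mrm2, a methyltransferase of the large mitochondrial rRNA, to Fastk, whose mitochondrial form is needed for the mt-Nd6 mRNA, and to Gtpbp3, which modifies mitochondrial tRNAs. Mrm2 had 3.83, 3.69 and 3.6 FPKM in Angptl2-/- against 6.06, 5.03 and 5.31 FPKM in Angptl2+/+ (log2 fold change −0.54, adjusted p = 0.273 from limma). Fastk had 11.1 to 11.4 FPKM in Angptl2-/- against 13.4 to 16.5 FPKM in Angptl2+/+, and Gtpbp3 had 4.02 to 4.35 FPKM in Angptl2-/- against 4.75 to 6.27 FPKM in Angptl2+/+.

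Nuclear-encoded subunits of the same complexes had median log2 fold changes of −0.30 in complex I (38 genes tested), −0.19 in complex III (9), −0.33 in complex IV (10) and −0.17 in complex V (16). With the 4 genes of complex II, 0 of these 77 were called, as for 0.0% of all genes. By unadjusted p under 0.05, 28 of the 77 lay lower in Angptl2-/- beside 9.12% of all genes, and 0 higher beside 7.09%. The difference between these and the mitochondrial subunits was not tested.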

How the data were processed

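The authors deposited 1 FPKM value per gene and library from 150-base paired-end reads of an Illumina HiSeq. Per the labels, Bowtie 0.12.2 and mm8 were used, while the identifiers and gene lengths match GENCODE M21 (GRCm38) for 54495 of 54532. For library selection, counting tool, strand setting and multi-mapping reads, details were not given in the sources used here. FPKM times exon length gave whole fragments for 96.6 to 96.8% of values above 0 (tolerance 0.05), and the steps followed median-ratio size factors, not library totals.

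limma 3.58.1 (R 4.3.3) with an intensity trend was fitted to log2(FPKM + 0.1) for 14862 genes with a mean of at least 0.5, two-sided, Benjamini-Hochberg adjusted. It was run on simulated data with a smaller spread than these libraries have, which does not show how the test performs here. On this scale, differences of low genes come out too small. The study's own gene set calculations were not repeated. Copies came from GENCODE transcripts, by exact windows and BLAST 2.17.0, with a minimum of 250 bases chosen after lengths were seen (500 planned in the genome). Named genes were the 13 protein-coding and 2 rRNA genes, the 6 tRNAs with most fragments or an unadjusted p under 0.05, all annotated copies above 0 in every library, and of the machinery list Polrmt, Tfam, Lrpprc, the most abundant and the 3 with the smallest p. Members and lists were chosen with earlier results of these data known. Wilson intervals of shares cover counting error only, while limma intervals of fold changes rest on the spread between libraries. Pseudocount, filter, scaling, GC correction, voom, the replicate number as a block and leaving out each library were the alternatives.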

Additional observations from a re-analysis of the deposited data

How the results depend on the processing

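No alternative called a mitochondrial gene, over 19 settings of the limma test. Adjusted p-values of the 21 named members ran from 0.183 (mt-Tw) to 1.0 (mt-Co1 after quantile normalization). At an unadjusted p under 0.05 the 4 higher and 0 lower of 32 (7.09% and 9.12% of all genes) became 2 and 0 without a filter (4.54% and 5.29% of all genes), 2 and 0 without an intensity trend (6.26% and 8.09%), 1 and 1 after the GC correction (2.73% and 4.31%), 4 and 1 with a pseudocount of 1 (7.09% and 9.05%), and 3 and 1 with voom on recovered fragments (7.84% and 8.23%). Leaving out 1 library gave 1 to 7 higher (1 without Angptl2-/- replicate 2, 7 without Angptl2-/- replicate 3, 2 without Angptl2+/+ replicate 2) and 0 to 2 lower (1 without Angptl2-/- replicate 1 or 3, 2 without Angptl2+/+ replicate 3), while 3.13 to 9.24% of all genes were higher and 5.32 to 11.1% lower. With 7 mitochondrial genes higher, without Angptl2-/- replicate 3, it was 3.13% of all genes. The median of the 13 protein-coding genes was 0.19 without Angptl2+/+ replicate 2 and 0.43 without Angptl2+/+ replicate 3.

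With the replicate number as a block, 8 were higher and 2 lower, beside 1164 and 1492 of all 14862 genes, with 0 mitochondrial genes and 1 gene of all called. Whether a shared number marks a pair is not stated in the sources used here. Same-numbered libraries correlated at 0.0371, −0.0693 and 0.162 in their deviations, and 3 of 6 libraries correlated best with their own number. With 3 libraries per genotype, these values can neither show nor exclude pairs.

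The GC correction turned the log2 fold change of 11 named members round, to −0.22 in mt-Rnr1, −0.14 in mt-Rnr2, −0.011 in mt-Nd1, −0.11 in mt-Tn, −0.16 in mt-Co2, −0.25 in mt-Atp6, −0.29 in mt-Co3, −0.25 in mt-Nd3, −0.041 in mt-Nd4, −0.00093 in mt-Te and −0.035 in mt-Cytb. Quantile normalization turned 3 round, to −0.19 in mt-Rnr1, −0.052 in mt-Rnr2 and −0.058 in mt-Nd4. It ties values to ranks, which limits differences of the highest genes by construction. The cause of the turned signs was not tested. Leaving out 1 library gave −0.21 to 0.40 in mt-Atp6 (negative without Angptl2-/- replicate 3), −0.28 to 0.31 in mt-Co3 (negative without Angptl2-/- replicate 3 or Angptl2+/+ replicate 2) and −1.11 to 0.31 in mt-Atp8. Leaving out Angptl2-/- replicate 3 gave log2 fold changes of 0.19 in mt-Nd1 and mt-Nd2, 0.14 in mt-Nd4, 0.26 in mt-Nd5, 0.23 in mt-Nd6, 0.20 in mt-Co1, 0.090 in mt-Co2, 0.22 in mt-Nd3, 0.51 in mt-Tn and 0.60 in mt-Te. Without Angptl2+/+ replicate 2 it was 0.036 in mt-Rnr1, 0.16 in mt-Rnr2, 0.19 in mt-Nd1, 0.28 in mt-Nd2, 0.21 in mt-Nd4, 0.15 in mt-Co1, 0.13 in mt-Cytb, 0.0022 in mt-Nd3 and 0.11 in mt-Tn. Without Angptl2-/- replicate 1 it was 0.68 in mt-Nd2, 0.56 in mt-Nd4 and −0.33 in mt-Nd4l. Without Angptl2+/+ replicate 3 it was 0.50 in mt-Co1, 0.43 in mt-Cytb, 0.26 in mt-Rnr1 and 0.24 in mt-Te. Without Angptl2-/- replicate 2 it was 0.0042 in mt-Nd3, 0.15 in mt-Tn and 0.24 in mt-Te, and without Angptl2+/+ replicate 1 it was 0.32 in mt-Nd3 and 0.47 in mt-Tn. Log2 ratios ran from −0.98 to 0.087 for mt-Atp8 to mt-Atp6, from −0.30 to 0.030 for mt-Co2 to mt-Co1 and from −0.029 to 0.079 for mt-Nd6 to mt-Nd5.

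With segments of at least 500 bases, 8 in place of 11 nuclear genes were like the mitochondrial genome. A search of the genome itself was not run. Depth limits the tRNAs with under 100 fragments and mt-Atp8 (95 fragments in all).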
